A study of Mus musculus with 6 samples.

Results

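*Grin1*, *Grin2a*, *Grin2b*, *Grin2d* and *Grin3a*, which encode subunits of the NMDA receptor, and *Dlg2*, *Dlg4*, *Shank1*, *Shank2* and *Homer1*, which encode scaffold proteins of the postsynaptic density, were followed in RNA from *Mll1KO* and WT mouse retinas. The 10 genes were taken by name, as 5 receptor subunits and 5 scaffolds, and all 10 were among the 11339 genes analysed. The comparison asked how their transcripts differ at postnatal day 14 (P14) between *Mll1KO* and WT retinas. RNA-seq libraries were made from 3 *Mll1KO* and 3 WT samples, each of 2 retinas. *Mll1KO* mice were homozygous for the floxed allele (MLL1 fl/fl) and carried Chx10-Cre, the WT mice were labelled as wild type, and all were of the C57Bl6/J strain and of age P14. Chx10-Cre is active in retinal progenitor cells, and no floxed allele or Cre was named for the WT libraries, so that an effect of the Cre transgene and of the deletion cannot be told apart. Mice of both sexes were used in the study, and the sex behind each library was not given in the sources used here.

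NMDA receptors are glutamate-gated cation channels that contain the obligatory GluN1 subunit, encoded by *Grin1*, with GluN2 subunits that bind glutamate and set channel kinetics, or with GluN3 subunits, which lower calcium permeability. The channel opens when glutamate and a co-agonist, glycine or D-serine, are bound and depolarization has relieved its magnesium block, and in the retina it is best known from ganglion cells and from some amacrine cells. Beneath the receptor, membrane-associated guanylate kinases (MAGUKs) such as those encoded by *Dlg4* and *Dlg2* hold GluN2 subunits through PDZ domains, Dlgap proteins join the MAGUKs to Shank proteins, and Homer proteins tie Shanks to calcium stores.

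Expression was given as RPKM, reads of a gene scaled to its length and to the library total, and differences as log2 fold changes of *Mll1KO* against WT on the log2(RPKM + 1) scale, which understates the change of weakly expressed genes. A gene was called higher or lower where its limma adjusted p was under 0.05. Library totals (a, b, c) were 23836033, 19777205 and 19323512 reads for WT and 23348923, 19855963 and 17961097 reads for *Mll1KO*. The least covered of the 10 genes, *Grin2a*, had between 119 and 176 reads per library, and the most covered, *Dlg4*, between 20854 and 30536 reads.

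*Kmt2a*, as *Mll1* is now named, had an RPKM of 36.1, 36.9 and 34.6 in WT libraries a, b and c and of 22.9, 20.4 and 22.3 in *Mll1KO* libraries a, b and c. All 3 *Mll1KO* libraries lay below all 3 WT libraries, and the log2 fold change was -0.69, with a standard error of 0.05 (limma adjusted p = 2.77e-05). The *LoxP* sites flank exons 3 and 4, so that most of this RPKM comes from exons outside the excised part and does not measure the share of cells with a deletion. The tissue was recognisable by the rod marker *Gnat1*, encoding rod transducin, which had an RPKM of 4762.4, 4157.4 and 4359.8 in WT and of 5995.5, 5719.8 and 5670.2 in *Mll1KO* libraries a, b and c.

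*Grin3a* was higher in *Mll1KO* retinas, *Shank1* and *Shank2* were lower, and 7 of the 10 genes were not called, among them *Grin1* and *Dlg4*. With limma, 1 of 10 genes was thus called higher, beside 8.81% of all 11339 genes, and 2 of 10 were called lower, beside 14.5% of all genes. All *Mll1KO* libraries lay below all WT libraries in 3 of the 10 genes (*Grin2b*, *Shank1* and *Shank2*), beside 26.5% of all genes, and above them in 1 of the 10 (*Grin3a*), beside 14.6% of all genes. These counts were near the shares over all genes, and the median log2 fold change was -0.03 both for the 10 genes and for all genes. RNA of whole retinas was measured, so that fewer cells of a type and less RNA per cell cannot be told apart in any of these values.

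Library scaling mattered for small differences. Over all genes, 999 were called higher and 1644 lower with the authors' scaling to the library total, which puts 37.8% of the calls on the higher side, whereas 1257 were higher and 1163 lower with TMM factors (51.9% higher) and 1276 were higher and 1126 lower with RLE factors (53.1% higher). When the rod markers were given the same summed RPKM in every library (rod scaling), the all-gene median went from -0.03 to -0.3 in log2 fold change, with 222 genes called higher and 9418 lower (2.3% higher). Under that rod scaling, 9 of the 10 genes were called lower and *Grin3a* was still called higher.

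**Figure D1:**
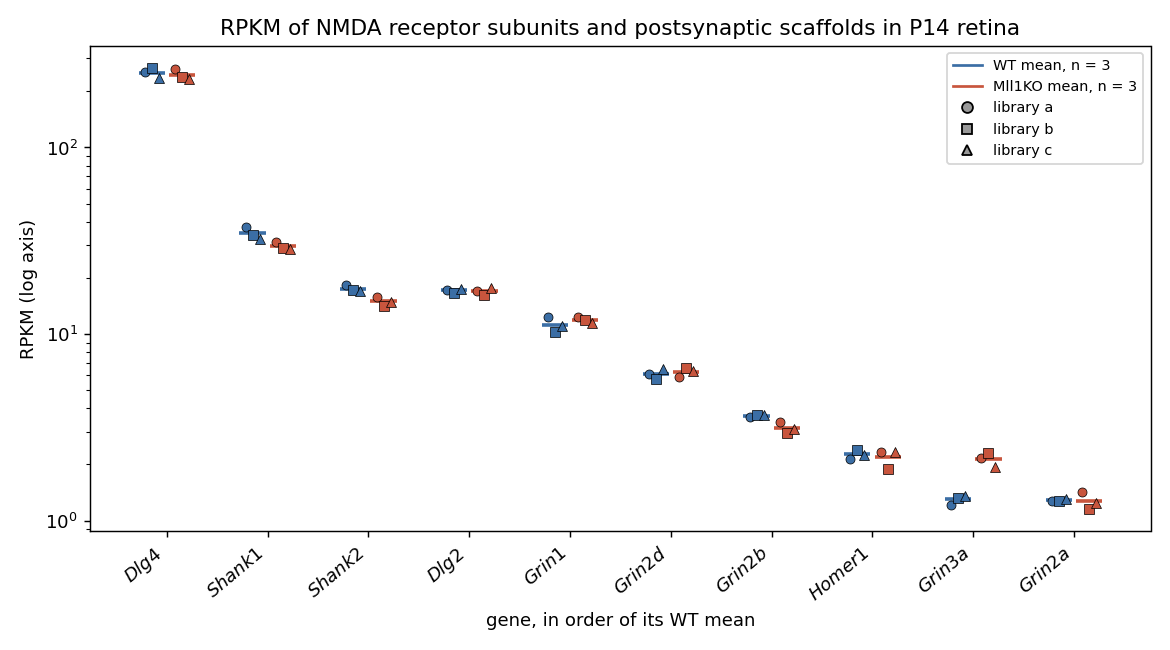
RPKM of the 10 genes (log axis) in each of the 3 WT libraries (blue) and 3 *Mll1KO* libraries (red), ordered by the WT mean, with symbols for libraries a, b and c and lines at the group means. *Dlg4* stood far above the other genes, *Grin3a* was higher in all 3 *Mll1KO* libraries, also with TMM factors and under rod scaling, and *Grin2b*, *Shank1* and *Shank2* were lower in all 3.

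*Grin1* (ENSMUSG00000026959) encodes the subunit present in every NMDA receptor (GRCm38 chromosome 2, 25291181 to 25319187, minus strand). Its RPKM was 12.4, 10.2 and 11.0 in WT libraries a, b and c and 12.3, 11.9 and 11.5 in *Mll1KO* libraries a, b and c. The groups overlapped, with WT libraries at both ends of the range. The log2 fold change was 0.08 (standard error 0.07, 95% confidence interval -0.06 to 0.23, limma adjusted p = 0.391), and it was -0.2 under rod scaling. An antisense gene, *Grin1os*, covers 13.5% of the exon bases of *Grin1*, and whether reads were counted by strand was not given in the sources used here, so reads of both genes cannot be told apart there.

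*Grin2a* (ENSMUSG00000059003; chromosome 16, 9567898 to 9995560, minus strand) and *Grin2b* (ENSMUSG00000030209; chromosome 6, 135713233 to 136173511, minus strand) encode the GluN2 subunits of most synaptic NMDA receptors in the forebrain. *Grin2a* had an RPKM of 1.27, 1.28 and 1.3 in WT and of 1.42, 1.15 and 1.25 in *Mll1KO* libraries a, b and c. The *Mll1KO* libraries lay on both sides of the tightly grouped WT libraries. Its log2 fold change was -0.01 (95% confidence interval -0.13 to 0.12, limma adjusted p = 0.948), and its sign turned with TMM and with RLE factors (0.01 each), without *Mll1KO* library b (0.03) and without *Mll1KO* library c (0.0005).

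*Grin2b* had an RPKM of 3.59, 3.7 and 3.67 in WT and of 3.39, 2.94 and 3.09 in *Mll1KO* libraries a, b and c. Every *Mll1KO* library was below every WT library, with library a closest to WT. The log2 fold change was -0.17 (standard error 0.06, 95% confidence interval -0.3 to -0.04), which did not pass the threshold after adjustment over all genes (limma adjusted p = 0.0563). It passed with limma-voom on the reads recovered from RPKM (log2 fold change -0.22, adjusted p = 0.0101), without *Mll1KO* library a (-0.21, adjusted p = 0.0284) and under rod scaling (-0.41, adjusted p = 0.000172). Over the 15 alternatives the limma adjusted p of *Grin2b* ranged from 0.000172 to 0.163, and its log2 fold change was negative in all 15.

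*Grin2d* (ENSMUSG00000002771; chromosome 7, 45831883 to 45878378, minus strand) encodes a GluN2 subunit that gives slowly deactivating receptors with a weak magnesium block. Its RPKM was 6.08, 5.71 and 6.51 in WT and 5.86, 6.57 and 6.32 in *Mll1KO* libraries a, b and c. The groups overlapped across most of their range, and the log2 fold change was 0.03 (95% confidence interval -0.11 to 0.17, limma adjusted p = 0.761), with the opposite sign under rod scaling (-0.23), without WT library b (-0.01) and without *Mll1KO* library b (-0.001). Exon bases shared with the antisense gene *Gm45441* made up 9.7% of *Grin2d*.

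*Grin3a* (ENSMUSG00000039579; chromosome 4, 49661611 to 49845744, minus strand) encodes a GluN3 subunit, which binds glycine and forms channels with low calcium permeability. Its RPKM was 1.21, 1.33 and 1.36 in WT and 2.17, 2.3 and 1.95 in *Mll1KO* libraries a, b and c, from 354, 323 and 323 reads and from 623, 561 and 431 reads. The lowest *Mll1KO* library was well above the highest WT library. The mean RPKM rose from 1.3 ± 0.0802 (SD, n = 3) to 2.14 ± 0.175 (SD, n = 3), or to 164.8% of the WT mean. Its log2 fold change, 0.45 with a standard error of 0.06 (limma adjusted p = 0.000656), ranked at position 199 from the top of all 11339 genes. It was called higher under all 15 alternatives, with log2 fold changes from 0.18 to 0.73, the lowest with a pseudocount of 5 and the highest with limma-voom, and adjusted p from 3.99e-05 to 0.00477. No exon base of *Grin3a* was shared with another annotated gene.

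The subunit shares within a library do not depend on how libraries are scaled to each other. *Grin1* made up 47.5% ± 2.59 (SD, n = 3) of the summed RPKM of the 5 subunits in WT and 48.2% ± 0.714 (SD, n = 3) in *Mll1KO*. *Grin3a* made up 4.93%, 5.97% and 5.72% in WT and 8.63%, 9.26% and 8.11% in *Mll1KO* libraries a, b and c, and *Grin2b* 14.6%, 16.6% and 15.4% in WT and 13.5%, 11.8% and 12.8% in *Mll1KO*. Neither share overlapped between the groups, the first being larger and the second smaller in each *Mll1KO* library. The mean differences were 3.13 percentage points for *Grin3a* and -2.86 percentage points for *Grin2b*. The shares of *Grin2a* (mean 5.46% in WT and 5.16% in *Mll1KO*) and *Grin2d* (mean 25.9% and 25.3%) overlapped between the groups. The summed RPKM of the 5 subunits was 24.6, 22.3 and 23.8 in WT and 25.2, 24.9 and 24.1 in *Mll1KO* libraries a, b and c.

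**Figure D2:**
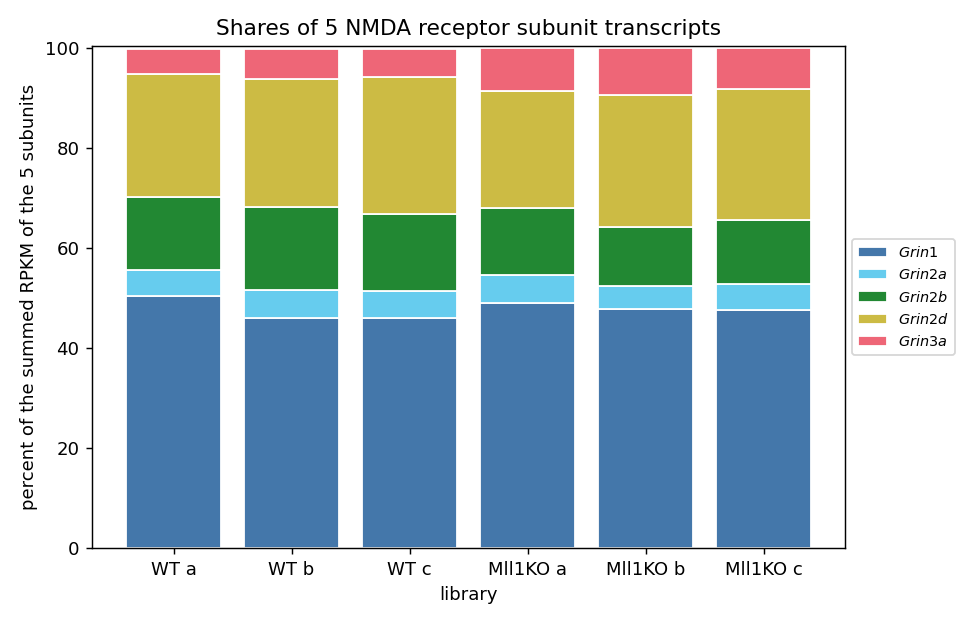
Percent of the summed RPKM of 5 NMDA receptor subunits taken by each subunit, in each of 6 libraries. The *Grin3a* segment is at most 5.97% in WT and at least 8.11% in *Mll1KO*, and the *Grin2b* segment is at least 14.6% in WT and at most 13.5% in *Mll1KO*.

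Among 7 ratios of RPKM within a library, those of *Grin2a* to *Grin2b* and of *Grin2b* to *Grin1* did not overlap between the groups. The ratio of *Grin2a* to *Grin2b*, which in the forebrain rises as synapses mature, was 0.353, 0.345 and 0.354 in WT and 0.42, 0.392 and 0.404 in *Mll1KO* libraries a, b and c. The log2 difference was 0.21, with a two-sided exact permutation p of 0.1, the smallest that 3 against 3 libraries allow, and of 0.35 after Benjamini-Hochberg adjustment over the 7 ratios. The ratio of *Grin2b* to *Grin1* was 0.29, 0.361 and 0.335 in WT and 0.275, 0.247 and 0.269 in *Mll1KO*, a log2 difference of -0.31 with the same exact p of 0.1 (adjusted 0.35). Neither difference could pass a threshold of 0.05 in this design. The ratios of *Grin2a* to *Grin1*, *Grin2d* to *Grin1*, *Dlg2* to *Dlg4*, *Shank1* to *Shank2* and *Homer1* to *Dlg4* overlapped between the groups, with exact permutation p from 0.4 to 0.9 (adjusted 0.875 to 0.9).

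The subunits differ in the ends of their coding sequences, which is where GluN2 subunits carry the short motif that PDZ domains of MAGUKs bind, and this is the feature that joins the subunits to the scaffolds among the 10 genes. Shown are the last 30 coding bases of the longest annotated coding sequence of each subunit in GENCODE vM21 (GRCm38), 5′ to 3′ on the minus strand and each within a single exon, with the 4 codons before the stop codon in capitals.
*Grin1* (chromosome 2, 25292368 to 25292397): cagctgtgttcccgtCATAGGGAGAGCtga
*Grin2a* (chromosome 16, 9577827 to 9577856): aaaatgcctagtattGAATCTGATGTCtaa
*Grin2b* (chromosome 6, 135732098 to 135732127): aaactttctagtattGAGTCTGATGTCtga
*Grin2d* (chromosome 7, 45832780 to 45832809): cacttctccagcctgGAGTCCGAGGTAtga
*Grin3a* (chromosome 4, 49665226 to 49665255): caaaggacgaaccggACTTGTGAATCCtag
Compared with *Grin2b*, 11 of the 12 capital bases were equal in *Grin2a*, 9 in *Grin2d*, 5 in *Grin3a* and 4 in *Grin1*. Bases and not amino acids were compared, and a different base can leave the encoded amino acid the same. The annotation held 2 distinct ends for *Grin1*, over 8 complete coding transcripts, and 2 for *Grin2b*, over 3, so that the end shown for each of these is not its only one. RPKM per gene does not separate transcripts, so the use of these ends was not measured.

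Among the scaffolds, *Shank1* and *Shank2* were lower in *Mll1KO* retinas and *Dlg4*, *Dlg2* and *Homer1* were not called. *Dlg4* (ENSMUSG00000020886; chromosome 11, 70016942 to 70047522, plus strand) encodes the best known MAGUK of excitatory synapses, which in the retina is also abundant in photoreceptor terminals. Its RPKM was 253.3, 266.7 and 236.3 in WT and 262.5, 239.2 and 233.1 in *Mll1KO* libraries a, b and c, above 99.3% of genes in WT. The ranges of the groups overlapped widely. The log2 fold change was -0.04 (95% confidence interval -0.18 to 0.09, limma adjusted p = 0.659), and under rod scaling it was called lower (-0.35, adjusted p = 0.000424).

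*Dlg2* (ENSMUSG00000052572; chromosome 7, 90476672 to 92449247, plus strand) encodes a further MAGUK that binds NMDA receptors. Its RPKM was 17.3, 16.7 and 17.4 in WT and 17.0, 16.2 and 17.6 in *Mll1KO* libraries a, b and c, so that the *Mll1KO* libraries spanned the whole WT range. The log2 fold change was -0.01 (95% confidence interval -0.12 to 0.09, limma adjusted p = 0.856), with the opposite sign with TMM and RLE factors and without *Mll1KO* library b (0.02 each), and -0.3 under rod scaling. *Homer1* (ENSMUSG00000007617; chromosome 13, 93299635 to 93405129, plus strand), which encodes long adaptor forms and a short activity-induced form that the values do not separate, had an RPKM of 2.15, 2.4 and 2.25 in WT and of 2.32, 1.89 and 2.34 in *Mll1KO* libraries a, b and c. Only *Mll1KO* library b was below the WT libraries. Its log2 fold change was -0.04 (95% confidence interval -0.19 to 0.11, limma adjusted p = 0.714), and it was 0.03 without *Mll1KO* library b.

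*Shank1* (ENSMUSG00000038738; chromosome 7, 44310253 to 44360572, plus strand) encodes a large scaffold that links Dlgap proteins to Homer and the actin cytoskeleton. Its RPKM was 37.7, 33.8 and 32.5 in WT and 31.2, 28.9 and 28.7 in *Mll1KO* libraries a, b and c. All *Mll1KO* libraries were below all WT libraries, although *Mll1KO* library a lay close under WT library c. The mean fell to 85.4% of WT, and the log2 fold change was -0.22, with a standard error of 0.06 (limma adjusted p = 0.0241). The call was lost with TMM factors (-0.19, adjusted p = 0.0558), with RLE factors (-0.18, adjusted p = 0.0613) and with the level of the pigment epithelium gene *Pmel* as a term (-0.24, adjusted p = 0.0705), an alternative chosen after seeing the data. It was also lost without WT library a (-0.16, adjusted p = 0.0601), WT library b (-0.23, adjusted p = 0.0513), *Mll1KO* library b (-0.2, adjusted p = 0.0726) and *Mll1KO* library c (-0.2, adjusted p = 0.0874). Over the 15 alternatives the adjusted p ranged from 1.57e-05 to 0.0874 and the log2 fold change from -0.52 to -0.16. *Shank1* shares 3.2% of its exon bases with *1700008O03Rik* on the opposite strand.

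*Shank2* (ENSMUSG00000037541; chromosome 7, 144001928 to 144424494, plus strand) encodes a related scaffold with the same kinds of partners. Its RPKM was 18.3, 17.3 and 17.0 in WT and 15.9, 14.2 and 14.8 in *Mll1KO* libraries a, b and c. No library of the groups overlapped, and the mean fell to 85.3% of WT. The log2 fold change was -0.22, with a standard error of 0.05 (limma adjusted p = 0.0172). The call was lost without WT library a (-0.18, adjusted p = 0.0578), *Mll1KO* library b (-0.18, adjusted p = 0.0594) and *Mll1KO* library c (-0.21, adjusted p = 0.0592), and the other alternatives kept it. Over the 15 alternatives the adjusted p ranged from 2.2e-05 to 0.0594. The ratio of *Shank1* to *Shank2* averaged 1.97 (SD 0.072, n = 3) among WT and 1.98 (SD 0.0544, n = 3) among *Mll1KO* libraries, a difference smaller than the spread between libraries. The summed RPKM of the 5 scaffolds was 328.8, 336.9 and 305.5 in WT and 329.0, 300.3 and 296.6 in *Mll1KO* libraries a, b and c, and most of it was *Dlg4*.

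**Figure D3:**
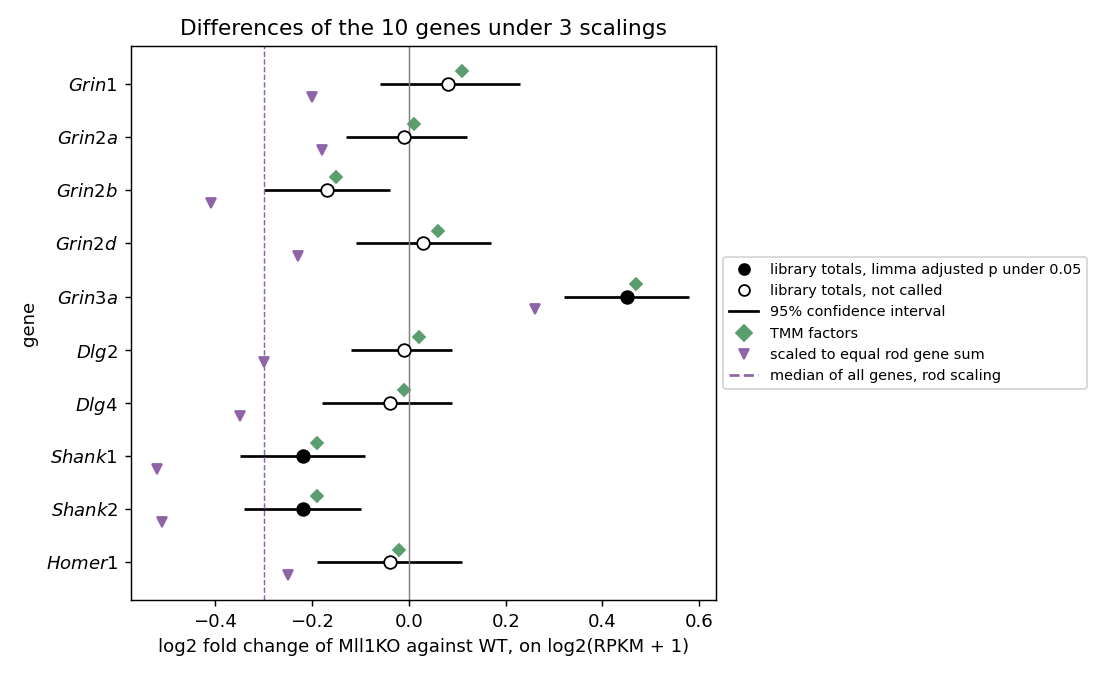
Log2 fold changes of *Mll1KO* against WT on the log2(RPKM + 1) scale for the 10 genes, with 95% confidence intervals (circles, filled where called), TMM factors (diamonds) and rod scaling (triangles; dashed line, the median of all genes under it, -0.3). *Grin3a* stayed above 0 under each of these scalings and *Grin2b*, *Shank1* and *Shank2* stayed below 0, whereas *Grin1* and *Grin2d* changed sign under rod scaling and *Grin2a* and *Dlg2* with TMM factors.

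In WT the levels per length ran in the order *Dlg4*, *Shank1*, *Shank2*, *Dlg2*, *Grin1*, *Grin2d*, *Grin2b*, *Homer1*, *Grin3a* and *Grin2a*. *Dlg4* had 7.27 times the mean RPKM of *Shank1*, the next in order. The lowest WT library of *Shank2* (RPKM of 17.0) was below the highest of *Dlg2* (17.4), and that of *Grin3a* (1.21) was below the highest of *Grin2a* (1.3), so that these 2 pairs of neighbours did not differ beyond their spread. Each other pair of neighbours was separated in all WT libraries. Of *Grin2a*, *Grin2b* and *Grin2d*, the last was the most abundant and took 55.2% ± 1.68 (SD, n = 3) of their summed RPKM among WT libraries, and 58.6% ± 3.42 (SD, n = 3) among *Mll1KO* libraries. The gene lengths behind these levels were those of the authors' gene models, 5296 bases for *Grin2a* and 4982 for *Dlg4*, where all exons in GENCODE vM21 cover 17933 and 13251 bases. The order, the ratio of 7.27 and the shares depend on these lengths and were not recomputed with the exon lengths of the annotation.

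The 5 genes whose deviations from the WT mean were most like those of *Grin1* over the 6 libraries were *Lrsam1*, *Cnksr3*, *E130102H24Rik*, *Rnf166* and *Efhd2*, out of 11146 genes compared. Their root mean square difference from *Grin1* on the log2(RPKM + 1) scale was between 0.03 (*Lrsam1*) and 0.036 (*Efhd2*). *Lrsam1* had an RPKM of 9.43, 7.67 and 8.38 in WT and of 9.6, 8.81 and 9.09 in *Mll1KO* libraries a, b and c. Like *Grin1*, it was low in WT libraries b and c.

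Beyond the 10 genes, 41 of 45 further genes of the receptor and its scaffold were analysed, and *Grin3b*, *Lrrc7*, *Ptk2b* and *Slc7a10* were not analysed here. Of the 41 genes, 7 were called higher and 9 lower with limma, beside 8.81% and 14.5% of all genes, and 11 lay above and 11 below WT without overlap, beside 14.6% and 26.5% of all genes. Their median log2 fold change was 0.0002, beside -0.03 for all genes. The counts were 8 higher and 7 lower with TMM factors, 8 and 6 with RLE factors and 1 and 30 under rod scaling. Under rod scaling 222 of all 11339 genes were called higher and 9418 lower. The only other subunit gene analysed, *Grin2c*, had a mean RPKM of 1.3 in WT (SD 0.261, n = 3) and 1.44 in *Mll1KO* (SD 0.184, n = 3) and was not called (log2 fold change 0.09, 95% confidence interval -0.1 to 0.28, and -0.09 under rod scaling).

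Of the further MAGUKs *Dlg1* and *Dlg3*, neither was called, and under rod scaling both were called lower, *Dlg1* with its log2 fold change turned from 0.05 to -0.24 (adjusted p = 0.00282) and *Dlg3* at -0.4 (adjusted p = 5.05e-05). *Dlg3* had an RPKM of 15.1, 15.1 and 14.7 in WT and of 13.7, 13.9 and 13.8 in *Mll1KO* libraries a, b and c, without overlap of the groups (limma adjusted p = 0.0778). Among the 4 Dlgap genes, whose proteins join MAGUKs to Shanks, *Dlgap1* was higher and *Dlgap2* and *Dlgap3* were lower, beside 8.81% and 14.5% of all genes. Under rod scaling 0 were higher and 3 lower, beside 222 and 9418 of all 11339 genes. The RPKM of *Dlgap3* was 21.0, 20.5 and 20.7 in WT and 16.5, 17.0 and 16.2 in *Mll1KO* libraries a, b and c. The groups stood far apart against a narrow spread within each, and the log2 fold change of -0.31 (limma adjusted p = 0.000679) kept its call under all 15 alternatives. *Dlgap4* was below WT in every *Mll1KO* library and was not called, with a log2 fold change of -0.15 (limma adjusted p = 0.0526), but it was called lower with limma-voom (adjusted p = 0.0258), without WT library c (0.0286) and under rod scaling (2.63e-05).

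*Shank3*, the remaining Shank gene, had an RPKM of 8.24, 8.5 and 7.76 in WT and of 6.02, 5.54 and 5.23 in *Mll1KO* libraries a, b and c. It fell to 68.6% of WT without overlap of the groups, by a log2 fold change of -0.47 with a standard error of 0.06 (limma adjusted p = 0.000595), and it was called lower under all 15 alternatives, with log2 fold changes from -0.52 to -0.43 when single libraries were left out. Whether *Shank3* changed more than *Shank1* and *Shank2* was not tested. *Homer2* and *Homer3* were not called, with log2 fold changes of 0.01 and 0.09. Under rod scaling both were called lower, at -0.23 (adjusted p = 0.0236) and -0.18 (adjusted p = 0.0148).

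Of the 15 genes for postsynaptic signalling, 2 were called higher and 4 lower, beside 8.81% and 14.5% of all genes. Under rod scaling 0 were higher and 11 lower, beside 222 and 9418 of all 11339 genes. *Camk2g*, which encodes a calcium/calmodulin-dependent kinase subunit, had an RPKM of 27.9, 25.9 and 27.2 in WT and of 35.4, 33.7 and 31.8 in *Mll1KO* libraries a, b and c. All *Mll1KO* libraries were above WT, with a log2 fold change of 0.3 (limma adjusted p = 0.00217) that was 0.01 under rod scaling and no longer called there. *Baiap2*, encoding an actin regulator that binds Shank proteins, was higher by a log2 fold change of 0.27 (limma adjusted p = 0.00929), and this was 0.004 and not called under rod scaling. The other kinase genes *Camk2a*, *Camk2b* and *Camk2d* had log2 fold changes of -0.09, -0.01 and 0.09 and were not called. That of *Camk2b* was 0.02 with TMM factors. Under rod scaling *Camk2a* (-0.36, adjusted p = 0.00018), *Camk2b* (-0.3, adjusted p = 0.000188) and *Camk2d* (-0.2, adjusted p = 0.00406) were called lower.

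The tyrosine kinase genes *Src* and *Fyn*, whose products phosphorylate GluN2 subunits, were both lower. *Fyn* had an RPKM of 18.0, 17.9 and 18.8 in WT and of 14.3, 15.1 and 14.8 in *Mll1KO* libraries a, b and c, with a log2 fold change of -0.29 (limma adjusted p = 0.00136) that kept its call under all 15 alternatives. *Src* had a log2 fold change of -0.18 (limma adjusted p = 0.0121), and its call was lost with the *Pmel* term (adjusted p = 0.0983, in a range from 1.36e-05 to 0.0983 over the alternatives). *Begain*, encoding a protein that binds MAGUKs, fell from a mean RPKM of 33.1 ± 2.28 (SD, n = 3) to 27.1 ± 1.09 (SD, n = 3), with a log2 fold change of -0.28 (limma adjusted p = 0.00554) that kept its call under all 15 alternatives. *Kalrn*, encoding a guanine nucleotide exchange factor, was called lower (-0.18, limma adjusted p = 0.0258) and lost the call without WT library a (adjusted p = 0.0765), WT library b (0.0777), *Mll1KO* library a (0.0521), *Mll1KO* library b (0.0622) and *Mll1KO* library c (0.0642), with RLE factors (0.0517), with the replicate block (0.0608) and with the *Pmel* term (0.0906).

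The supply of co-agonist was represented by *Srr*, encoding the enzyme that makes D-serine, and by transporter genes. *Slc6a9*, which encodes a glycine transporter and is also a marker of glycinergic amacrine cells, had an RPKM of 30.3, 29.9 and 32.1 in WT and of 35.4, 36.4 and 37.7 in *Mll1KO* libraries a, b and c. It was above WT in each *Mll1KO* library, with a log2 fold change of 0.24 (limma adjusted p = 0.00396), and -0.06 and not called under rod scaling. *Srr* had a log2 fold change of -0.15 (95% confidence interval -0.28 to -0.01, limma adjusted p = 0.105), not called, but called lower without WT library c (adjusted p = 0.0292) and under rod scaling (-0.43, adjusted p = 0.000128). *Slc1a4*, encoding a neutral amino acid transporter, was not called, with a log2 fold change of 0.02 (95% confidence interval -0.19 to 0.22). Under rod scaling it was called lower (-0.23, adjusted p = 0.0447).

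Among 10 genes for the transport and sorting of receptors, *Lin7b* and *Kif17* were higher and *Cask* was lower, beside 8.81% and 14.5% of all genes. Under rod scaling 1 was higher and 8 lower, beside 222 and 9418 of all 11339 genes. *Lin7b*, whose product forms a complex with those of *Cask* and *Apba1*, had an RPKM of 3.61, 3.94 and 4.63 in WT and of 6.18, 5.78 and 6.74 in *Mll1KO* libraries a, b and c. It stood above WT in each *Mll1KO* library, at 153.4% of the WT mean, with a log2 fold change of 0.52 (limma adjusted p = 0.00175) that was called under all 15 alternatives, rod scaling included (0.26). *Lin7a* and *Lin7c*, its paralogs, had log2 fold changes of 0.08 and -0.03 and were not called, and that of *Lin7c* was 0.01 with TMM factors. Under rod scaling both were called lower, *Lin7a* at -0.21 (adjusted p = 0.00371) and *Lin7c* at -0.32 (adjusted p = 0.000221). *Cask* had a log2 fold change of -0.2 (limma adjusted p = 0.0111), lost only with the *Pmel* term (adjusted p = 0.0773, in a range from 2.04e-05 to 0.0773 over the alternatives). *Kif17*, encoding a motor protein known to carry GluN2B, was at a mean RPKM of 1.64 in WT and 1.99 in *Mll1KO* (log2 fold change 0.18, limma adjusted p = 0.0426, and -0.02 under rod scaling). Its call was lost without WT library a (adjusted p = 0.108), WT library c (0.122), *Mll1KO* library a (0.103), *Mll1KO* library b (0.0912) and *Mll1KO* library c (0.0569), with limma-voom (0.0521), with the replicate block (0.0666), with the *Pmel* term (0.231) and under rod scaling (0.788).

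Among partners of Homer proteins, *Itpr1*, encoding a calcium release channel, had a log2 fold change of -0.17 (limma adjusted p = 0.0402). Its call was lost with TMM factors (adjusted p = 0.0687), RLE factors (0.0703), the replicate block (0.0758) and the *Pmel* term (0.115), and without WT library b (0.133), WT library c (0.114), *Mll1KO* library a (0.0582), *Mll1KO* library b (0.0962) and *Mll1KO* library c (0.105). *Dlgap1* had a log2 fold change of 0.16 (limma adjusted p = 0.044), and of -0.12 under rod scaling. It lost its call under rod scaling (adjusted p = 0.0827), with the replicate block (0.0787) and the *Pmel* term (0.0858), and without WT library a (0.0668), WT library b (0.154), WT library c (0.0788), *Mll1KO* library b (0.101) and *Mll1KO* library c (0.132). *Dlgap2* had a log2 fold change of -0.18 (limma adjusted p = 0.0334). It lost its call with TMM factors (adjusted p = 0.0509), RLE factors (0.0526), the replicate block (0.0723) and the *Pmel* term (0.0618), and without WT library a (0.0621), WT library b (0.105), WT library c (0.077), *Mll1KO* library b (0.0979) and *Mll1KO* library c (0.0984). Of the 7 further genes called higher, 4 kept the call when each library was left out in turn, as did 6 of the 9 called lower.

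Markers of retinal cell types also differed between the genotypes, and their part in the results above was not tested. Beside the marker lists given here and below, 8.81% of all genes were called higher and 14.5% lower with limma. Under rod scaling, 222 of all 11339 genes were called higher and 9418 lower. Of 13 ganglion cell markers analysed, 0 were called higher and 12 lower with limma, with a summed RPKM of 695.1, 658.0 and 687.5 in WT and of 543.7, 491.5 and 466.3 in *Mll1KO* libraries a, b and c. The most abundant was *Sncg*, the defining factor *Pou4f2* was at an RPKM of 4.24, 4.72 and 5.04 in WT and of 2.34, 1.57 and 2.29 in *Mll1KO*, and *Isl2* and *Pou4f3* were not analysed here. Of 14 amacrine markers, 2 were higher (*Gad1* and *Slc6a9*) and 6 lower, with a sum of 528.4, 531.6 and 546.2 in WT and of 466.3, 439.2 and 459.2 in *Mll1KO*, led by *Calb2*, and *Th* was not analysed here. With TMM and with RLE factors 5 amacrine markers were higher and 6 lower, and under rod scaling 0 were higher and 10 lower. *Calb2* carried most of the difference in the amacrine sum, with a mean RPKM of 254.8 in WT and 180.1 in *Mll1KO*. Without it the summed RPKM of the other 13 markers overlapped between the groups, at 97.9% of the WT sum. That sum joins opposite differences, with *Gad1* and *Slc6a9* called higher and *Gad2*, *Tfap2a*, *Tfap2b*, *Tfap2c* and *Pax6* called lower.

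Bipolar markers numbered 15, of which 0 were higher and 8 lower, with a summed RPKM of 655.0, 649.8 and 640.8 in WT and of 550.1, 546.8 and 563.2 in *Mll1KO* libraries a, b and c. With TMM and with RLE factors 7 bipolar markers were lower. Under rod scaling all 15 were, as were all 13 ganglion cell markers and all 9 horizontal cell markers, beside 9418 of all 11339 genes. Of 9 horizontal cell markers, 0 were higher and 7 lower, with a sum of 156.1, 160.3 and 154.6 in WT and of 107.9, 111.0 and 116.0 in *Mll1KO*, led by *Sept4*, and *Gja10* and *Lhx1* were not analysed here.

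For rods, 13 of 19 markers were higher and 1 lower, beside 8.81% and 14.5% of all genes. Their summed RPKM was 19223.8, 18131.7 and 18625.1 in WT and 22965.8, 23507.1 and 22804.6 in *Mll1KO* libraries a, b and c. For cones, 8 of 12 markers were higher and 1 lower, with a sum of 705.8, 717.0 and 775.8 in WT and of 1028.1, 1138.7 and 1086.9 in *Mll1KO*, led by *Gnb3* in WT. Most of the cone difference came from *Guca1a*, with a mean RPKM of 144.2 in WT and 421.4 in *Mll1KO*, and the sum of the other 11 markers was at 112.7% of WT. Under rod scaling 4 cone markers were called higher and 3 lower, beside 222 and 9418 of all 11339 genes. Of the rod markers, 1 was called higher and 5 lower there. Rod scaling sets the sum of these same 19 rod markers equal in every library, so their counts under it are no separate result.

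Of 14 Müller glia markers, 6 were higher and 3 lower, with a summed RPKM of 1537.8, 1524.1 and 1664.8 in WT and of 1901.1, 1986.4 and 1954.7 in *Mll1KO* libraries a, b and c, led by *Glul*. Of 4 astrocyte markers, 3 were higher and 1 lower, with a sum of 128.8, 119.2 and 134.5 in WT and of 187.2, 188.7 and 180.6 in *Mll1KO*, led by *Aldoc*, and *Pax2* was not analysed here. Under rod scaling these glial lists had 3 higher and 8 lower, and 2 higher and 1 lower, beside 222 and 9418 of all 11339 genes. Of 7 endothelial markers, 1 was higher and 2 lower, with a sum of 90.4, 88.8 and 87.1 in WT and of 72.1, 64.3 and 66.3 in *Mll1KO*, led by *Kdr*, without which the sum was at 88.4% rather than 76.1% of WT, and under rod scaling 0 were higher and 5 lower. None of 4 microglial markers was called, with 0 also under TMM and RLE factors and 2 lower under rod scaling, and their sum was 17.1, 17.2 and 16.7 in WT and 15.8, 17.4 and 18.3 in *Mll1KO*, led by *C1qb*, with *Aif1*, *C1qa*, *P2ry12* and *Tmem119* not analysed here.

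Markers of tissue from around the retina also varied between libraries, and whether such tissue was carried over was not tested. The 3 pigment epithelium markers analysed, led by *Ttr*, summed to an RPKM of 149.2, 94.5 and 221.2 in WT and of 79.3, 163.3 and 81.5 in *Mll1KO* libraries a, b and c, and 0 of them were called, with 2 called lower under rod scaling. *Pmel* varied most, with an RPKM of 57.1, 15.1 and 99.4 in WT and of 9.37, 34.0 and 11.0 in *Mll1KO*, while *Best1*, *Lrat*, *Mlana*, *Rpe65* and *Tyr* were not analysed here. The 2 lens markers analysed, led by *Cryab*, summed to 45.0, 38.9 and 46.2 in WT and to 64.1, 46.4 and 36.4 in *Mll1KO*, with *Cryaa* at 32.1 in *Mll1KO* library a and between 6.54 and 12.4 elsewhere. Of these 2 markers 0 were called, with 1 called lower under rod scaling, and *Cryba1*, *Crybb2*, *Crygs*, *Lim2* and *Mip* were not analysed here. With *Pmel* as a term in the fit, *Grin3a* was still called higher and *Shank2* lower, and *Shank1* was not called, with a log2 fold change of -0.24 and a standard error of 0.08, beside -0.22 and 0.06 without the term.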

How the data were processed

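RNA of 3 *Mll1KO* and 3 WT retina samples was enriched for mRNA, depleted of rRNA and sequenced as single reads of 50 bases. Per the labels, reads were aligned to mm10 with STAR 2.0.4b and counted with Subread featureCounts 1.45. The authors deposited RPKM per gene and library, in 11404 lines for 11339 genes (59 IDs in more than 1 line), for genes with a CPM above 5 in at least 5 samples, so that no gene could pass through 1 genotype alone. Their columns for the comparison (fold change, mean CPM, p and FDR, from edgeR 3.17.9) were not used. Whole reads were recovered from RPKM for 100.0% of genes within 0.05 reads, and 98.4% to 98.5% of each library total lay on the genes analysed. Genotypes were compared with limma 3.58.1 in R 4.3.3 on log2(RPKM + 1) with a variance trend, two-sided, adjusted by Benjamini-Hochberg over 11339 genes at 0.05. The procedure was tested only on reads simulated with the same relative spread between libraries for every gene. Those reads held no shift of library scaling between genotypes and no carried-over tissue, so neither was covered by that test. Alternatives were pseudocounts of 0.1 and 5, TMM factors (own implementation, trimming 30% and 5%), RLE factors, rod scaling, a mean RPKM of at least 1, limma-voom on recovered reads, the replicate letter as a block, leaving out single libraries and, added after seeing the data, a *Pmel* term. Ratios were repeated with a pseudocount of 0.1 and without single libraries. Positions and exon overlaps came from GENCODE vM21, and other steps used Python 3.11.15, numpy 2.4.6, pandas 2.3.3 and matplotlib 3.10.9.

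Named were all 10 genes, further pathway genes past the threshold or highest or lowest in their role (not all are used here), *Kmt2a*, and the 5 genes most like *Grin1* among those with at most 2 times its spread within groups. Other genes not past the threshold were chosen after their values were seen. The gene left out of a marker sum was the one whose mean differed most, a step added after seeing the data. The members and lists were chosen with earlier results of these data known. The samples were described as biological replicates.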

Additional observations from a re-analysis of the deposited data

How the results depend on the processing

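*Grin3a* was called higher under all 15 alternatives, with log2 fold changes from 0.18 to 0.73. The number of the 10 genes called lower moved from 2 to 1 with TMM factors, RLE factors and the *Pmel* term, to 9 under rod scaling, and lay between 0 and 3 when single libraries were left out. The further pathway genes called lower moved from 9 to 30 under rod scaling and 4 with the *Pmel* term, and lay between 6 and 9 when single libraries were left out, and those called higher moved from 7 to 1 under rod scaling and lay between 4 and 8. Over all genes, those called lower moved from 1644 to 9418 under rod scaling and 917 with the *Pmel* term, and lay between 1030 and 1559 when single libraries were left out, and those called higher moved from 999 to 222 under rod scaling and lay between 674 and 977. The *Pmel* term also leaves 1 degree of freedom fewer, and the cause of these other shifts was not tested.

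The sign turned under rod scaling for *Grin1* (-0.2) and *Grin2d* (-0.23), and with TMM and RLE factors for *Grin2a* (0.01 each) and *Dlg2* (0.02 each). When single libraries were left out, the log2 fold change ranged from -0.05 to 0.03 for *Grin2a*, -0.01 to 0.07 for *Grin2d*, -0.04 to 0.02 for *Dlg2* and -0.08 to 0.03 for *Homer1*.

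Whether libraries with the same letter a, b or c shared a batch was not given in the sources used here. Deviations of libraries with the same letter from their group means correlated over genes with r of -0.0395, -0.19 and -0.00714. For different letters r lay between -0.0919 and 0.132. Deviations of 3 libraries from their own mean are tied to each other, so these values cannot decide whether a batch was shared. A replicate block called 895 genes higher and 1347 lower, and 1 and 2 of the 10 genes, and it changed no call among the 10 genes. Among the further pathway genes it called 5 higher and 7 lower: the calls of *Dlgap1*, *Dlgap2*, *Kalrn*, *Kif17* and *Itpr1* were lost and *Rph3a* was called lower (adjusted p = 0.0413).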
